A study of Mus musculus with 81 samples.

Results

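The libraries described here are 4 of the 81 of the study, the whole microglial population of adult male mice after 5 weeks on a diet with 0.2% cuprizone, with and without the transcription factor gene Egr2. They were chosen by their column names in the deposited count table: 2 libraries of the genotype Cx3cr1CreERT2/WT::Egr2fl/fl (called Egr2KO below) and 2 of Cx3cr1CreERT2/WT (called Cre). All mice were on the C57BL/6 strain, and both groups carried the CreERT2 driver at 1 allele of Cx3cr1, a gene of microglia and other macrophages, so the driver is no difference between them. Cells were sorted as CD44low CD45low CD11blow and were not divided further by CD229, CD11c or Clec7a, the surface proteins that gated most of the other cuprizone samples. Per the labels' protocols the brains of 2 to 6 mice were pooled for a sort. The labels used here state neither how CreERT2 was activated nor which part of Egr2 lies between the loxP sites.

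Microglia are the resident macrophages of the brain. Cuprizone is a copper chelator that kills oligodendrocytes, and the loss of myelin that follows turns microglia to a phagocytic, disease-associated state marked by genes such as Itgax, Clec7a and Spp1. Egr2 encodes a zinc-finger transcription factor of the early growth response (EGR) family, whose members bind the same GC-rich DNA element and are held in check by the corepressors Nab1 and Nab2; in macrophages Egr2 is known for its induction by interleukin 4.

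Total counts were 7744945 and 5824888 in the Cre libraries and 8189662 and 10091845 in the Egr2KO libraries. Of the defining genes of microglia, P2ry12 stood at 808 to 1022 CPM (counts scaled to the library's total after TMM normalization). Markers of T and NK cells summed to at most 1.065 CPM, with Cd3e, Cd3d, Cd3g, Ncr1 and Nkg7 at 0, and those of neutrophils to at most 0.486 CPM, with 6 of 8 at 0. Neuronal markers summed to at most 3.62 CPM, whereas the astrocyte list reached 109 to 148 CPM, nearly all of it from the transporter gene Slc1a3. Replicates are separate samples by their labels, and p-values rest on the spread between these samples, moderated across genes. In bulk libraries, fewer cells of a type and less RNA per cell cannot be told apart.

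Egr2 itself (chromosome 10, 67537869 to 67542188, mm10) was counted at 69.0 and 67.4 CPM in the Cre libraries and at 18.3 and 25.9 CPM in the Egr2KO libraries. The groups did not overlap, and reads remained in both Egr2KO libraries. The log2 fold change was -1.61 ± 0.14 (SE, n = 2 each; edgeR quasi-likelihood test, Benjamini-Hochberg adjusted p = 3.94e-05). Counts per gene do not show whether the remaining reads come from an intact transcript.

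Of the other EGR genes, Egr3, a close relative with the same type of zinc fingers, moved the opposite way. It was at 17.1 and 16.5 CPM in Cre and at 37.1 and 40.4 CPM in Egr2KO libraries, more than 2-fold higher in both (1.21 ± 0.13, adjusted p = 2.28e-04). Per transcript length, on the TPM scale in the authors' deposited table, Egr2 was listed at 33.8 and 31.2 in Cre and 8.96 and 12.96 in Egr2KO. Egr3 was listed there at 6.23 and 5.84 in Cre and 13.2 and 15.3 in Egr2KO. The level of Egr2 was thus above that of Egr3 in both Cre libraries, and below it in both Egr2KO libraries. Egr1, the best known immediate early member, was at 1114 and 1100 in Cre and 1006 and 721 CPM in Egr2KO and did not pass (-0.36 ± 0.12, adjusted p = 0.293); without Egr2KO replicate 1 it did (-0.62, adjusted p = 0.0131). The corepressor genes Nab1 (0.31 ± 0.09, adjusted p = 0.198) and Nab2 (0.08 ± 0.07, adjusted p = 0.815) did not pass.

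Across the genome 114 of 12387 tested genes were called at an adjusted p under 0.05, 0.92% of those tested. They divided into 37 higher (0.299%) and 77 lower (0.622%) in Egr2KO, and 13 and 26 of these moved at least 2-fold. The median log2 fold change of all tested genes was 0.00472, and 6033 of the 12387 lay below 0. None of the 114 had overlapping groups, a separation that 38.4% of all tested genes showed as well. Leaving out Cre replicate 1 raised the count to 310, with 255 lower, and leaving out Cre replicate 2 raised it to 176. Each of these fits keeps 1 Cre library, so the spread between replicates comes from the Egr2KO libraries alone. All 114 kept their direction in both fits, which was fixed beforehand because their groups did not overlap.

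**Figure D1:**
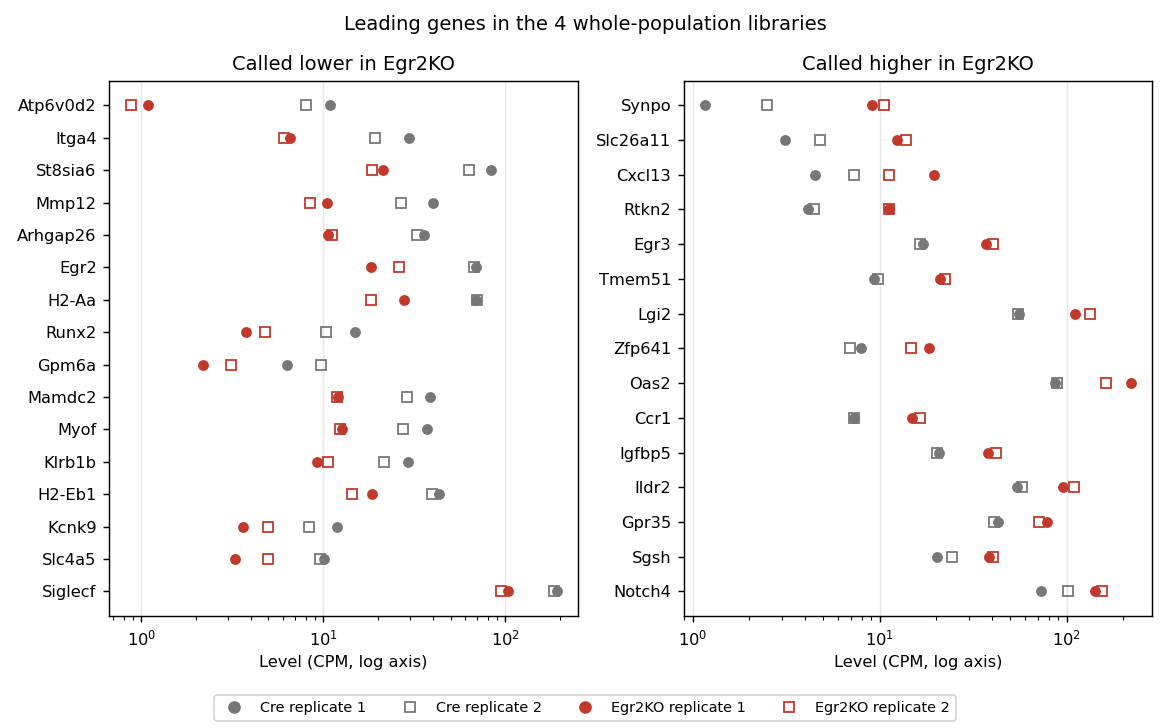
Level in CPM (log axis) of the called genes with the largest changes or smallest p in each direction, in the 2 Cre libraries (grey) and the 2 Egr2KO libraries (red); circles are replicate 1 and open squares replicate 2. In each gene shown the Cre and Egr2KO libraries do not overlap: Egr2 lies at 67.4 to 69.0 CPM in Cre and 18.3 to 25.9 CPM in Egr2KO.

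Among the genes that fell, a first set acts at the cell surface and in the matrix. Itga4, the alpha 4 integrin chain, was at 29.5 and 19.2 CPM in Cre and 6.53 and 6.12 CPM in Egr2KO libraries (-1.97 ± 0.21, adjusted p = 2.32e-04). St8sia6, a sialyltransferase that extends sialic acids on glycoproteins, had the smallest adjusted p of all genes: it was at 83.1 and 62.8 CPM in Cre and 21.2 and 18.5 CPM in Egr2KO libraries (-1.90 ± 0.14, adjusted p = 2.58e-05). Every Egr2KO library of both genes lay below the lower Cre library by more than 2-fold. Mmp12, the macrophage elastase, fell from 40.0 and 26.6 to 10.5 and 8.45 CPM (-1.84 ± 0.19, adjusted p = 2.28e-04). Siglecf, a receptor that binds sialic acids, fell from 191 and 186 to 104 and 94.7 CPM (-0.93 ± 0.08, adjusted p = 3.94e-05). Its replicates lay close together, so that this smaller change had a p like that of Egr2. The C-type lectin receptor gene Klrb1b (-1.37 ± 0.18) and the sulfatase gene Sulf2 (-0.65 ± 0.08), which trims heparan sulfate, fell too.

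A further set encodes regulators inside the cell. Runx2, a transcription factor best known from bone, fell from 15.0 and 10.3 to 3.75 and 4.76 CPM (-1.58 ± 0.25, adjusted p = 0.00475). Bhlhe40, a basic helix-loop-helix repressor of macrophages, fell from 129 and 148 to 81.1 and 94.4 CPM (-0.65 ± 0.09, adjusted p = 0.00239). It was the 1 called gene among the 18 tested lineage factors (5.56%, against 0.622% of all genes), and Spi1 (-0.09), Irf8 (-0.16) and Mef2a (-0.17) did not pass. Arhgap26, a GTPase-activating protein, fell by -1.66 ± 0.14, the Src family kinase gene Fgr by -0.76 ± 0.08, and the Ras relative Mras by -0.71 ± 0.10. Myof, a membrane repair protein of the ferlin family, fell from 37.3 and 27.5 to 12.7 and 12.3 CPM (-1.39 ± 0.16, adjusted p = 3.60e-04). Atp6v0d2, a subunit of the proton pump that acidifies lysosomes, had the lowest fold change of all, from 10.9 and 7.99 to 1.09 and 0.874 CPM (-3.28 ± 0.35, adjusted p = 2.28e-04). It was the 1 called gene of 19 tested lysosomal genes, of which 13 fell without Cre replicate 1 and 6 with no filter on low counts. The median of that list was -0.23, and 18 of its 19 genes lay below 0. The 1 call made up 5.26% of the list, against 0.622% of all genes.

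Disease-associated microglia genes were lower in Egr2KO for part of the list. Of 26 tested members 5 fell (19.2%, against 0.622% of all genes) and none rose in this fit; 24 lay below 0, and the list's median was -0.28. Itgax, which encodes CD11c, was at 576.5 and 588 CPM in Cre and 361 and 286 CPM in Egr2KO libraries (-0.85 ± 0.10, adjusted p = 3.60e-04). Spp1, the secreted phosphoprotein osteopontin, fell from 590.2 and 680.5 to 397 and 381 CPM (-0.71 ± 0.09, adjusted p = 4.73e-04). Clec7a, the beta-glucan receptor, fell from 597 and 612.5 to 416 and 409.9 CPM (-0.55 ± 0.07, adjusted p = 0.00132). Mean levels in Egr2KO were 0.556 (Itgax), 0.612 (Spp1) and 0.683 (Clec7a) of those in Cre.

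The other called members of that list were Mamdc2, a secreted proteoglycan, which fell from 38.6 and 28.9 to 12.1 and 11.9 CPM (-1.50 ± 0.16, adjusted p = 2.28e-04), and the pyrophosphate transporter gene Ank (-0.39 ± 0.08, adjusted p = 0.0337). Ank no longer passed without Egr2KO replicate 1 (adjusted p = 0.455) or replicate 2 (adjusted p = 0.14). Other well-known members did not pass: the lipid carrier gene Apoe had a log2 fold change of -0.39 ± 0.13 (adjusted p = 0.272), the lipase gene Lpl -0.11 ± 0.09, and Ly9, which encodes CD229, 0.04 ± 0.07 (adjusted p = 0.915). Trem2, the lipid-sensing receptor gene needed for this state, was at 524.6 and 671 CPM in Cre and 511 and 516 CPM in Egr2KO and did not pass (-0.22 ± 0.10, adjusted p = 0.523). It did without Cre replicate 1 (-0.39, adjusted p = 0.00117). Without that library 16 genes of this list fell; without Cre replicate 2, 8 fell and 1 rose, and the joint fit with the 6-week gates called 1 lower.

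Homeostatic genes mark resting microglia. All 24 tested members lay below 0, with a median of -0.15 beside 0.00472 for all genes. The test called 1 of them lower (4.17%, against 0.622% of all genes). This was the uroplakin gene Upk1b, which fell from 60.4 and 50.2 to 30.3 and 35.5 CPM (-0.75 ± 0.12, adjusted p = 0.00526). The purine receptor gene P2ry12 had a log2 fold change of -0.31 ± 0.08 (adjusted p = 0.103), and Tmem119 one of -0.15 ± 0.09. Without Cre replicate 1, 12 of the homeostatic genes fell, and without Cre replicate 2, 2 did.

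MHC class II genes, which present peptides to CD4 T cells, fell for 4 of 8 tested members, against 0.622% of all genes, and the list's median was -0.69. In the joint fit with the 6-week gates H2-Aa alone of the 4 passed. H2-Aa, the alpha chain of I-A, was at 69.1 and 69.6 CPM in Cre and 27.9 and 18.4 CPM in Egr2KO (-1.60 ± 0.15, adjusted p = 8.11e-05). H2-Eb1, the beta chain of I-E, fell from 43.0 and 39.8 to 18.6 and 14.4 CPM (-1.34 ± 0.14, adjusted p = 2.28e-04). In both genes the higher Egr2KO library was well below the lower Cre library. The invariant chain gene Cd74 fell from 266 and 286 to 181 and 140.5 CPM (-0.78 ± 0.10, adjusted p = 9.96e-04), and H2-Ab1 by -0.60 ± 0.09. The class II transactivator gene Ciita had few reads, at 3.49 and 4.44 CPM in Cre and 2.17 and 1.85 CPM in Egr2KO (-0.97 ± 0.36, adjusted p = 0.379). The loading factors H2-DMa (-0.23 ± 0.09) and H2-DMb1 (-0.05 ± 0.09) did not pass. Of 10 tested MHC class I genes edgeR called none (1 at an unadjusted p under 0.05, 0 calls by DESeq2), and their median was -0.00444. Without Cre replicate 1, 3 of them fell.

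**Figure D2:**
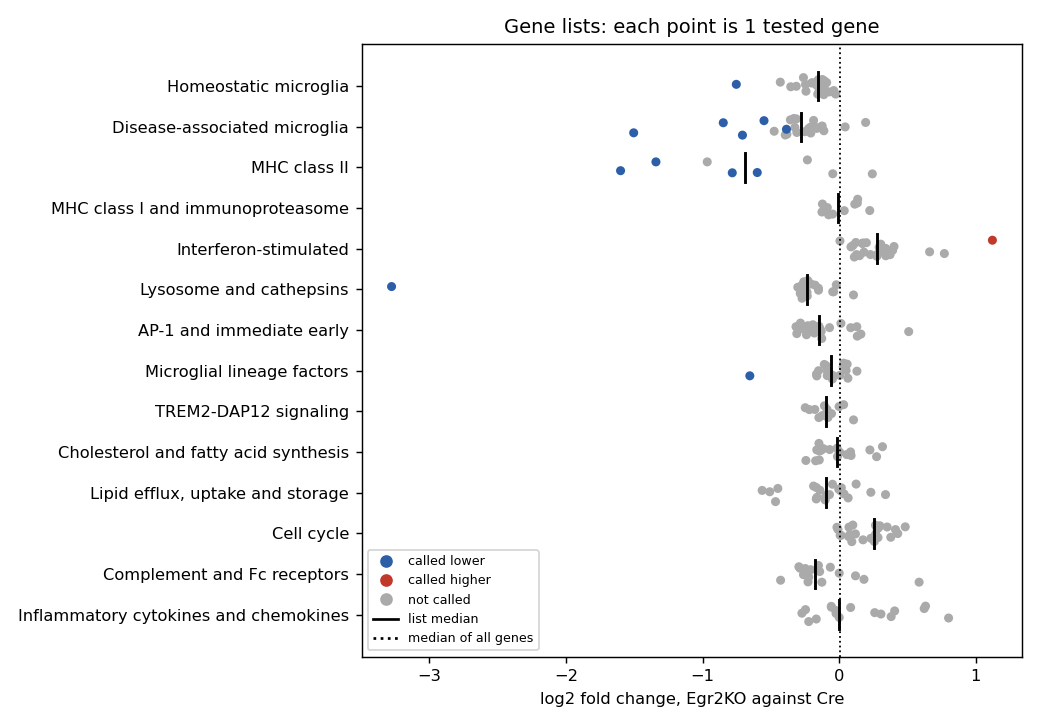
log2 fold change of Egr2KO against Cre for the tested genes of 14 lists, 1 point per gene; black bars are list medians and the dotted line is the median of all tested genes. MHC class II has the lowest median (-0.69), and each of the 25 interferon-stimulated genes lies above 0.

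Markers of other cells moved beside the class II genes. Mrc1, the mannose receptor of macrophages at the brain's borders, fell from 33.6 and 29.1 to 17.3 and 14.9 CPM (-0.98 ± 0.14, adjusted p = 0.00222), and the scavenger receptor gene Cd163 from 7.12 and 5.68 to 2.17 and 2.24 CPM (-1.54 ± 0.31, adjusted p = 0.0322). Without Cre replicate 1 Cd163 did not pass (adjusted p = 0.136). Of 8 border macrophage markers these 2 were called (25%, against 0.622% of all genes) and 7 lay below 0. The sum of the 8 was 276 and 311 CPM in Cre and 384 and 298.5 CPM in Egr2KO. Siglec1, at 216 to 353.5 CPM, made up most of that sum and had a log2 fold change of 0.41 ± 0.11 (adjusted p = 0.158). Dendritic cell markers summed to 12.7 and 13.1 CPM in Cre and 11.7 and 10.8 CPM in Egr2KO, with Ccr7 at 0. The part of such cells in the class II values was not tested.

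Genes of the choroid plexus epithelium, the tissue that secretes cerebrospinal fluid, were lower as well. This list was chosen after its values were seen, so its counts describe these libraries only. All 12 of its genes were tested, 12 lay below 0 and 7 were called lower (58.3%, against 0.622% of all genes). DESeq2 did not call Enpp2, Ttr, Slc4a5 or Kl, and the joint fit with the 6-week gates called none of them, nor Clic6 or Igf2. They summed to 858 and 1066 CPM in Cre and 499 and 641.5 CPM in Egr2KO. Enpp2, the secreted lysophospholipase autotaxin, fell from 404 and 516 to 230.2 and 307 CPM (-0.77 ± 0.13, adjusted p = 0.00675), and the chloride channel gene Clic6 from 35.3 and 36.9 to 14.7 and 17.5 CPM (-1.15 ± 0.13, adjusted p = 3.60e-04). The part of the sort in these values was not tested. The summed level of the 8 defining microglial genes was 8930 and 10510 CPM in Cre and 8300 and 8262 CPM in Egr2KO.

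**Figure D3:**
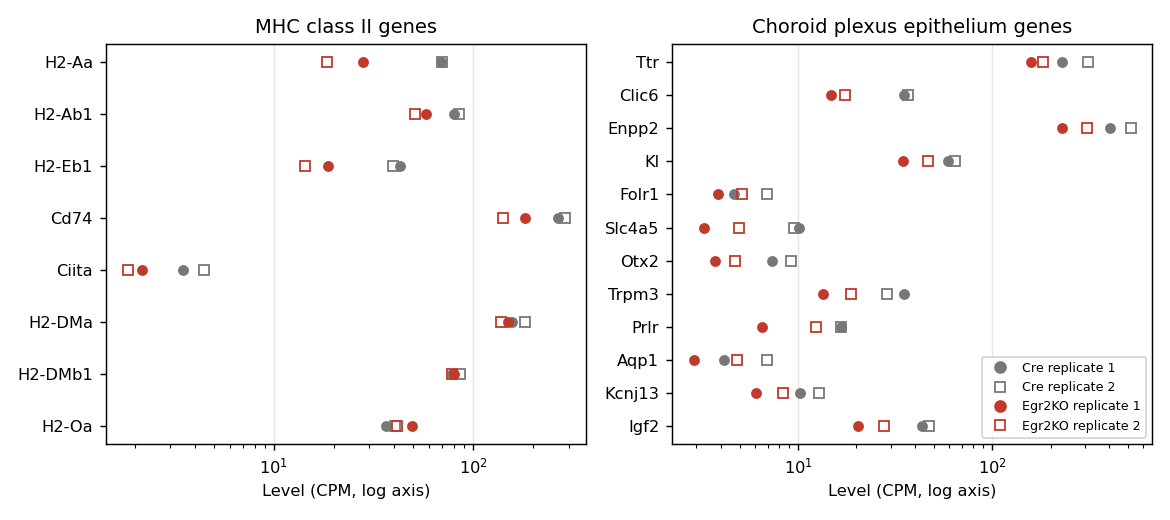
Level in CPM (log axis) of the 8 tested MHC class II genes and of 12 choroid plexus epithelium genes in each library; grey is Cre, red Egr2KO, circles replicate 1 and open squares replicate 2. The Egr2KO libraries of H2-Aa (27.9 and 18.4 CPM) and of Clic6 (14.7 and 17.5 CPM) lie below both Cre libraries.

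The genes that rose were fewer and of mixed function. Synpo, which encodes the actin-binding protein synaptopodin, went from 1.17 and 2.48 to 9.06 and 10.6 CPM (2.50 ± 0.33, adjusted p = 9.96e-04). Lgi2, whose secreted product belongs to the LGI family of leucine-rich repeat proteins, went from 55.3 and 54.7 to 110 and 133 CPM (1.15 ± 0.10, adjusted p = 4.81e-05), which was the smallest adjusted p among genes that rose. Its replicates were close in each group and the groups lay about 2-fold apart. Slc26a11, an anion transporter, rose from 3.11 and 4.79 to 12.3 and 13.9 CPM (1.77 ± 0.24, adjusted p = 0.00132). Its neighbour on chromosome 11, the lysosomal sulfatase gene Sgsh, rose by 0.83 ± 0.13. Ildr2 (0.88 ± 0.09), an immunoglobulin-domain membrane protein, and Gpr35 (0.83 ± 0.10), a G protein-coupled receptor, rose with small errors.

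Several of the risen genes encode secreted signals or receptors. Cxcl13, the chemokine that attracts B cells, was at 4.53 and 7.28 CPM in Cre and 19.5 and 11.2 CPM in Egr2KO (1.39 ± 0.29, adjusted p = 0.0371). Its call ended without Cre replicate 1 (adjusted p = 0.0941) or Egr2KO replicate 1 (adjusted p = 0.0876). The chemokine gene Cxcl14 rose by 0.74 ± 0.10, the chemokine receptor gene Ccr1 by 1.11 ± 0.18, Igfbp5, a binding protein of insulin-like growth factors, by 0.97 ± 0.12, and the receptor gene Notch4 by 0.78 ± 0.12. The adenosine receptor gene Adora1 rose by 0.63 ± 0.10. H2-Q7 and H2-Q9 were called higher too, but these class I genes are near copies whose reads may be shared, and neither was called by DESeq2, in the joint fit, without Cre replicate 1 or without Egr2KO replicate 1.

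Interferon-stimulated genes lay above 0 in all 25 tested members, with a median of 0.28, and 1 was called, against 0.299% of all genes. That was Oas2, an antiviral sensor of double-stranded RNA, at 86.2 and 89.1 CPM in Cre and 221 and 162 CPM in Egr2KO (1.12 ± 0.12, adjusted p = 2.32e-04). Most of the others were high in Egr2KO replicate 1 and near Cre in replicate 2, as for Irf7, the regulator of interferon genes, at 103 and 140.2 CPM in Cre and 181 and 126 CPM in Egr2KO. Without Egr2KO replicate 2, 10 of the 25 were called higher, without Cre replicate 2, 2 were, and a replicate block gave 7. Cell cycle genes lay above 0 in 23 of 25 members (median 0.26), and edgeR called none (5 at an unadjusted p under 0.05, 0 calls by DESeq2). The proliferation marker Mki67 was at 148 and 173 CPM in Cre and 159 and 201 CPM in Egr2KO.

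Of 17 tested cytokine and chemokine genes, 21 AP-1 and other immediate early genes, 12 genes of TREM2-DAP12 signaling, 19 of cholesterol and fatty acid synthesis, 22 of lipid efflux, uptake and storage, 16 of glycolysis, 16 complement and Fc receptor genes and 10 Polycomb genes, edgeR called none and DESeq2 called 0. Without Cre replicate 1, 7 complement and Fc receptor genes, 4 of glycolysis and 2 each of the cytokine, AP-1, TREM2-DAP12 and lipid efflux lists fell, and 1 cytokine gene rose. Without Egr2KO replicate 1, 5 AP-1 and immediate early genes and 1 of glycolysis fell, and without Egr2KO replicate 2, 2 cytokine genes, 1 immediate early gene and 1 complement gene rose. Without Cre replicate 2, 1 gene each of glycolysis and complement rose. Of these 133 genes 35 had an unadjusted p under 0.05, among them 10 complement and Fc receptor genes, beside 1173 of all 12387. The medians of the 8 lists lay between -0.179 and 0.00116. In the list of growth factors and matrix genes, 16 tested, Lgi2 rose and Mmp12 fell (6.25% each, against 0.299% and 0.622% of all genes). In the list of alternative macrophage activation, Mrc1 and Cd163 were the 2 called of 8 tested (25%, against 0.622%). Both were already counted among the border macrophage markers. DESeq2 called 1 gene of this list lower, and the joint fit with the 6-week gates 0. Arg1, Chil3 and Retnla, classical markers of alternative activation, were too low to be tested. Among the immediate early genes, Fosb was at 65.0 and 14.7 CPM in Cre and 57.4 and 15.2 CPM in Egr2KO, high in replicate 1 of both groups.

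Near Egr2 on chromosome 10, 4 of the 100 tested genes within 10 Mb were called, all higher, against 0.92% of all genes. The noncoding 4930563J15Rik (67568518 to 67571959, minus strand) lies 26 kb past the end of Egr2. It had no read in either Cre library and lay at 5.20 and 6.41 CPM in Egr2KO, at least 9.77-fold higher when Cre is set to 3 counts per library. The others were Rtkn2 (4.14 and 4.44 CPM in Cre, 11.2 and 11.2 CPM in Egr2KO), A930033H14Rik, and Arid5b, a chromatin-binding factor (0.53 ± 0.09, adjusted p = 0.00626). The labels do not state which sequence next to Egr2 came with the floxed allele, and its part in these values was not tested.

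To place the called genes among microglial states, they were read against steps between Cre populations in other libraries. At 5 weeks these steps were nested. The Clec7a step compared Clec7apos CD229neg CD11cneg cells with cells negative for Clec7a, CD229 and CD11c. The CD229 step compared CD229pos with CD229neg cells among Clec7apos CD11cneg cells. The CD11c step compared CD11cpos with CD11cneg cells among Clec7apos CD229pos cells. In what follows on these steps, Clec7apos, CD229pos and CD11cpos cells are those of these comparisons. A diet step compared 5-week cells negative for Clec7a, CD229 and CD11c with undivided baseline cells, so gate and diet change together there. Each step list held genes called there at 2-fold or more. Of 126 tested genes higher in CD11cpos cells, 21 fell and 2 rose in Egr2KO (16.7% and 1.59%), with a median of -0.32. In the joint fit with the 6-week gates 9 of them fell and 1 rose. Of 129 genes lower in CD11cpos cells, 6 rose (4.65%, against 0.299% of all genes) and 0 fell by edgeR's test or by DESeq2. Their median was 0.20, and the joint fit called 0 of them in either direction. Without Cre replicate 1, 1 of them fell. In the Clec7a step 503 genes were higher in Clec7apos cells. Of these, 35 fell and 14 rose in Egr2KO (6.96% and 2.78%, against 0.622% and 0.299% of all genes). The joint fit called 14 of the 503 lower and 1 higher. Without Cre replicate 2, 26 of them rose.

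Read the other way, of the 62 genes lower in Egr2KO that could be matched, 43 were higher in CD11cpos cells past the test (69.4%, against 7.1% of all matched genes). Itgax was itself among them, since CD11c made the gate. In the Clec7a step 46 of the 62 were higher in Clec7apos cells (74.2%, against 22.3%). Clec7a, which made that gate, and Egr2 itself were among these 46 and among the 35 above. In the diet step 30 of the 62 were higher (48.4%, against 17.5%), Egr2 among them. Mmp12 was 2.41 higher on the log2 scale in CD11cpos cells, H2-Aa 2.25 and Myof 3.09. Of the 36 matched genes that rose, 23 were higher in Clec7apos cells and 23 in the diet step (63.9% each). In the CD229 step 10 of the 36 were higher in CD229pos cells (27.8%, against 2.22%) and 1 was lower (2.78%, against 3.44%). Of the 62 that fell, 4 were higher there (6.45%) and 5 lower (8.06%). In CD11cpos cells 12 of the 36 were lower (33.3%, against 7.83%) and 8 were higher (22.2%), among the latter Egr3 (1.26); Lgi2 was lower there (-1.94). Egr2 was 0.57 higher in CD11cpos cells (adjusted p = 1.12e-04). The share of CD11cpos cells in the whole-population sorts is not among the deposited values used here, and its part in these changes was not tested.

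**Figure D4:**
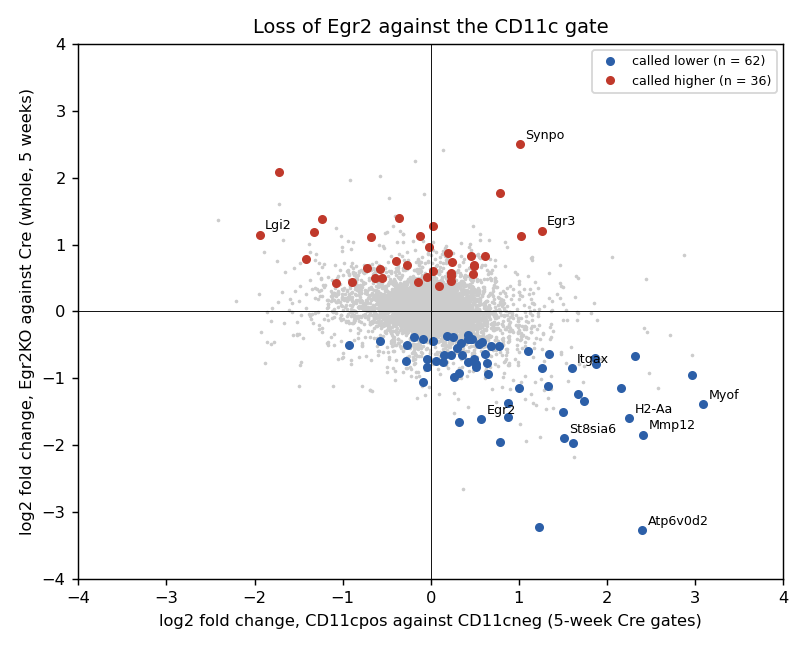
log2 fold change of Egr2KO against Cre in the whole population (vertical) against that of CD11cpos over CD11cneg cells (horizontal). The horizontal step lies within 5-week Cre cells positive for Clec7a and CD229. Blue genes fell (n = 62), red genes rose (n = 36) and grey genes were not called. Most blue genes lie to the right of 0, among them Myof (3.09) and Mmp12 (2.41). 1 uncalled gene lies outside the axes.

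The 6-week samples of the same 2 genotypes, sorted as CD229neg CD11cneg, CD229pos CD11cneg and CD229pos CD11cpos (3 libraries per genotype and gate), share no library with the whole population. In a joint fit of all 22 libraries over 12616 genes, 31, 405 and 68 genes were called in the 3 gates (0.246%, 3.21% and 0.539%). Of all genes 0.182%, 1.82% and 0.214% were called higher and 0.0634%, 1.39% and 0.325% lower. In each of these groups the titles of replicates 2 and 3 carry the tag PE150, and the title of the other replicate does not. The whole-population titles carry no such tag, and the joint fit holds no term for it. Egr2 itself passed in none of the gates. It lay at 14.4 to 26.5 CPM in Cre and 10.0 to 11.8 CPM in Egr2KO in CD229neg CD11cneg cells (-0.88 ± 0.25, adjusted p = 0.248), and at 32.8 to 61.4 and 22.7 to 42.8 CPM in CD229pos CD11cneg cells (-0.62 ± 0.20, adjusted p = 0.0817). In CD229pos CD11cpos cells it lay at 99.0 to 120.5 and 78.4 to 88.8 CPM (-0.43 ± 0.18, adjusted p = 0.374). Egr3 did not pass in any gate either (0.20, 0.60 and 0.33, adjusted p = 0.854, 0.135 and 0.605).

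Of the 114 genes called at 5 weeks 110 could be matched. Their direction was the same in 88, 92 and 107 of 110, against 50.3%, 56.3% and 58.1% of all genes. In the same order 11, 39 and 28 of them were called in the same direction, and none was called in the opposite one. These made up 10%, 35.5% and 25.5% of the 5-week calls and 35.5%, 9.8% and 41.2% of the gate's calls that were also tested at 5 weeks. Genes lower at 5 weeks had median log2 fold changes of -0.15, -0.28 and -0.37 in the gates, against -0.78 in the whole population, and 52, 56 and 71 of 73 kept their sign. Genes higher at 5 weeks had medians of 0.397, 0.588 and 0.435 against 0.753, and 36 of 37 kept their sign in each gate.

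**Figure D5:**
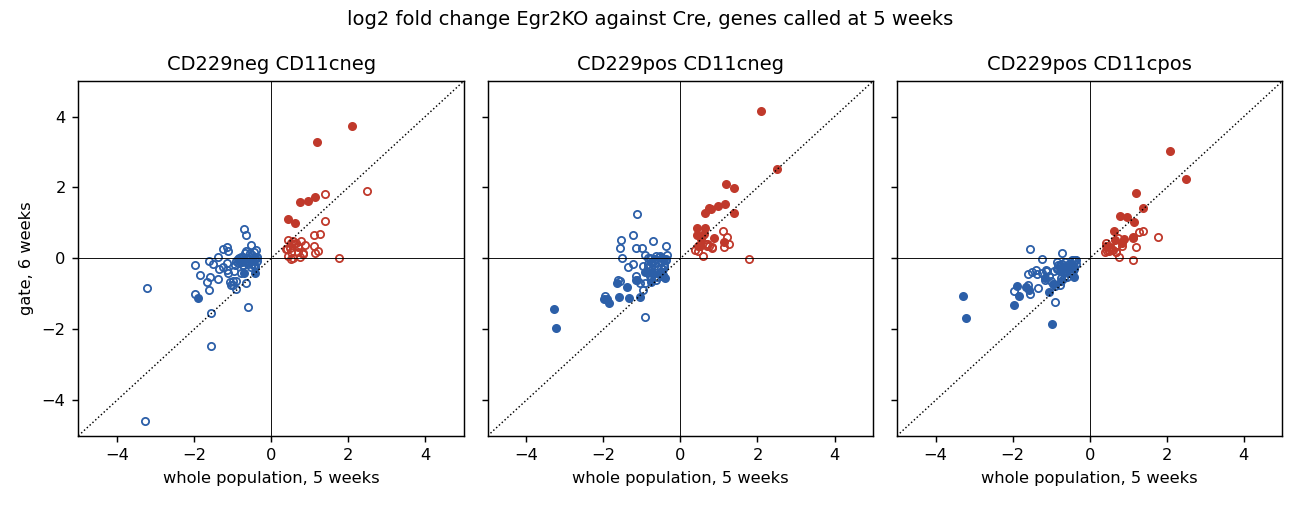
log2 fold change of Egr2KO against Cre in each 6-week gate (vertical) against the whole population at 5 weeks (horizontal), for the matched genes called at 5 weeks; blue genes fell and red genes rose at 5 weeks, filled points were also called in the gate, and the dotted line marks equal change. In CD229pos CD11cpos cells 107 of 110 genes have the same sign. 4930563J15Rik lies outside the axes.

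St8sia6, Mras and Rapgef6 fell, and Lgi2, Igfbp5, Adora1, Tmem51, Slpi and 4930563J15Rik rose, in all 3 gates as well as in the whole population fitted alone. In the joint fit the 5-week change of Rapgef6 (adjusted p = 0.125), Lgi2 (adjusted p = 0.0541), Igfbp5 (adjusted p = 0.374), Adora1 (adjusted p = 0.0786), Tmem51 (adjusted p = 0.167) and Slpi (adjusted p = 0.224) did not pass. That of Rapgef6 did not pass without Egr2KO replicate 1 or replicate 2 either. St8sia6 changed by -1.12, -1.15 and -0.78 in the 3 gates. Lgi2 ranged from 17.9 to 20.1 CPM in Egr2KO and 3.21 to 7.00 CPM in Cre in CD229neg CD11cneg cells, and from 91.7 to 147 against 27.3 to 63.7 CPM in CD229pos CD11cneg cells. Itga4 was called in both CD229pos gates (-1.14 and -1.32) and stood at -0.20 in CD229neg CD11cneg cells (adjusted p = 0.859). Mmp12 was called in the same gates (-1.27 and -1.05), and H2-Aa in CD229pos CD11cneg cells (-1.08) but not in CD229pos CD11cpos cells (-0.74, adjusted p = 0.119). Itgax was not called in any gate, with log2 fold changes of -0.12, -0.37 and -0.09. Spp1 lay above 0 in all 3 gates (0.83, 0.48 and 0.15) without passing, with adjusted p of 0.157, 0.203 and 0.837.

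Whether the change at 5 weeks differed from that in a gate was tested as an interaction. edgeR called 0 genes for each of the 3 gates, with 724, 880 and 410 genes at an unadjusted p under 0.05 and smallest adjusted p of 0.193, 0.289 and 0.231. DESeq2 called 3 genes against CD229neg CD11cneg (Itga4, Siglecf and Slc26a11), 1 against CD229pos CD11cneg (Slc26a11) and 0 against CD229pos CD11cpos cells. On the CPM scale of the joint fit, Slc26a11 was at 3.30 and 5.06 CPM in the Cre whole population and at 12.2 to 15.8 CPM in Cre CD229neg CD11cneg cells. For Itga4 the difference was -1.78 ± 0.38 against CD229neg CD11cneg cells (edgeR adjusted p = 0.193). Week, gate, experiment and, for replicates 2 and 3 of the gates, the title tag change together here and cannot be told apart.

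EGR proteins bind the element GCGTGGGCG, and sites with other bases at the second and eighth position, GNGTGGGNG, are bound too. RefSeq promoters (GRCm38.p6, 250 bases before to 50 after the start) were matched by symbol and searched on both strands, where every hit of the first motif is also a hit of the second. The strict motif was in 0 of 56 promoters of genes that fell and 0 of 28 of genes that rose, beside 126 of 9798 of all tested genes (1.29%) and 0.612% of the whole table. The relaxed motif was in 13 of 56 (23.2%) and 11 of 28 (39.3%), beside 17.4% of tested genes and 14.3% of the 32851 promoters of the table. The 2 genes per direction with the smallest p that held a match are shown by the 250 bases before their start, 5′ to 3′ on the gene's strand, with matches in capitals: Lgi2 (chr5:52566307-52566556, minus strand) and Gpr35 (chr1:92972869-92973118, plus strand) rose, and Fgr (chr4:132973845-132974094, plus strand) and Il4i1 (chr7:44836038-44836287, plus strand) fell. Another match of Lgi2 lies after the start.
Lgi2: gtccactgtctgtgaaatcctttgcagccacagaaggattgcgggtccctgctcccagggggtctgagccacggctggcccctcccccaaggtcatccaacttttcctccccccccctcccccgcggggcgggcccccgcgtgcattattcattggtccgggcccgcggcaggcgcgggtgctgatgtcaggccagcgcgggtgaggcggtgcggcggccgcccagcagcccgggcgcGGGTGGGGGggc
Gpr35: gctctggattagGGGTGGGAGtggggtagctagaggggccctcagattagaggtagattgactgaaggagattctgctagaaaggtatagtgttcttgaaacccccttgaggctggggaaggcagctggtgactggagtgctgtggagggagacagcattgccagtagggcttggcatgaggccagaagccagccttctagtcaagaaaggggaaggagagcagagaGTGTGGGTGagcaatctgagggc
Fgr: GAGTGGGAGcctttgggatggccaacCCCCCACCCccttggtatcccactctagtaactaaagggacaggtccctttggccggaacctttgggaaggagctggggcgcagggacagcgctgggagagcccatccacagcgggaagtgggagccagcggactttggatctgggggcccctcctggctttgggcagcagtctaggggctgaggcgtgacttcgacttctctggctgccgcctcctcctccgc
Il4i1: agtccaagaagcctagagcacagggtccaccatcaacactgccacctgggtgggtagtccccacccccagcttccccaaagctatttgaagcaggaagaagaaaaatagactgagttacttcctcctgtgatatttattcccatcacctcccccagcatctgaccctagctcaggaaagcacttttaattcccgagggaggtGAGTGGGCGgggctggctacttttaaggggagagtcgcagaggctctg
Lgi2 rose by 1.15 ± 0.10 and Gpr35 by 0.83 ± 0.10, while Fgr fell from 137 and 141 to 83.8 and 80.0 CPM and Il4i1, a secreted amino acid oxidase, from 93.0 and 99.9 to 50.5 and 57.2 CPM. The reads of Il4i1 cannot be separated from those of the overlapping Il4i1b. A match is a stretch of letters and no measured binding.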

How the data were processed

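RNA of sorted microglia was made into dUTP libraries, per the labels' titles. The deposited tables hold raw read counts per gene, 25124 genes with 1 RefSeq transcript each, and TPM values that the authors computed from the same libraries. The submitters' processing notes name mm10/GRCm38 and, among tools, HOMER 4.11, STAR 2.7.0f, DESeq2 and fastp 0.20.0, whose roles are not given in the sources used here. TPM was used only to set Egr2 beside Egr3.

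The model for counts was edgeR 4.0.16 under R 4.3.3 (filterByExpr, TMM, quasi-likelihood F test, threshold 0.05 after Benjamini-Hochberg adjustment over all tested genes; 2 residual degrees of freedom). The spread of each gene was moderated across genes (11.7 prior degrees of freedom). Standard errors were derived from the log2 fold change and the F value of the same test. CPM use TMM library sizes. The replicates differed by 3.87 (Cre) and 2.71 (Egr2KO) times the chi-square of counting noise. An exact permutation test of 2 against 2 libraries cannot go below p = 0.333, so single values were not tested that way. Gates at 6 weeks were fitted jointly with the whole population (22 libraries) over the 23371 genes with the same transcript in both tables. The 5-week gate steps and the diet step were fitted in 15 Cre libraries, which include the baseline ones. Genes set to a floor used 3 counts per library.

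The members and gene lists were chosen with earlier results of these data known. Named genes are the EGR and NAB genes, Ly9, Itgax, Clec7a, Trem2 and Mef2a, the called genes of at least 5 CPM with the 15 largest changes and 5 smallest p per direction without predicted genes, and up to 5 called genes per list; others named were chosen after their values were seen. There were 19 pathway and 11 marker lists, and choroid plexus was added. No oligodendrocyte, endothelial, B cell or monocyte marker was called (summed levels 173 to 194, 223 to 276, 11.4 to 14.2 and 18.0 to 25.0 CPM). Alternatives were RLE scaling, no filter, DESeq2 1.42.0, the joint fit, a replicate block and each library left out. A fit with a library left out holds 1 library in that group. Its spread between replicates comes from the other group alone, so its counts are not comparable with those of the full fit. The fits were tested on simulated data. Some measured items are not reported here.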

Additional observations from a re-analysis of the deposited data

How the results depend on the processing

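Of the 9 alternatives, RLE scaling (115 calls), DESeq2 (86) and leaving out Egr2KO replicate 1 (107) or replicate 2 (163) stayed within 1.5 times the 114 calls. Calls were 339 (121 higher, 218 lower) with no filter on low counts and 32 (10 higher, 22 lower) in the joint fit with the 6-week gates. Similar totals need not hold the same genes: of the 114, RLE scaling called 114, DESeq2 78 and the joint fit 31. Leaving out 1 library gave 107 to 310 calls, 36 to 69 higher and 71 to 255 lower; the highest counts came without Cre replicate 1 (310, of which 255 lower, 17.7% higher) and without Cre replicate 2 (176, of which 69 higher), and without Egr2KO replicate 2 63 were higher. The cause was not tested. Every called gene present kept its direction in all 9, 68 of 114 were called in each fit without 1 library, and 28 in each alternative. The joint fit ended the calls of 26 named genes, among them Egr3 (adjusted p = 0.125) and Itgax (adjusted p = 0.288), and DESeq2 those of 6, among them Enpp2 (adjusted p = 0.33), Ttr (adjusted p = 0.449) and Cd163 (adjusted p = 0.173). Egr1 passed with no filter (adjusted p = 5.11e-04). In the fits without 1 library the kept direction of the called genes was fixed beforehand, because their groups did not overlap.

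Interaction calls (0 in each gate) were 175, 212 and 26 with no filter, 3, 1 and 0 with DESeq2, and 0 to 1, 0 to 2 and 0 to 1 when 1 library was left out.

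The labels do not say that replicate numbers pair the libraries, and deviations of same-numbered libraries correlated at 0.0395 over genes. A replicate block gave 279 calls, 103 higher and 176 lower.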
